A study of Homo sapiens with 6 samples.

Results

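The AP-1 transcription factor genes described here are the 4 FOS family genes FOS, FOSB, FOSL1 and FOSL2, the 3 JUN family genes JUN, JUNB and JUND, and the related genes ATF3 and BATF3. These 9 genes, of 58174 in the deposited table, were listed by name, and the list was selected because FOSL1 was already known to be about 3-fold higher upon MSI1 knockdown in these same libraries. The difference between the groups is therefore given for the 9 genes as a description, with every library's value and no p-value. The order of the genes in control cells, the spread between libraries of a group and the sequences of the genes are described beside it. The siC values of FOSL1 enter its fold difference, so its place in that order rests on values that the selection used. Only the sequences do not come from those libraries.

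The study asked how the RNA-binding protein Musashi1 (MSI1) shapes gene expression in glioblastoma (GBM) cells. KNS42, a cell line derived from a pediatric GBM, was transfected with a control siRNA (siC, n = 3) or with a siRNA pool against MSI1 (siMSI1, n = 3), and polyA RNA was sequenced from cells harvested 72 h later. All 6 libraries are of this 1 line, a pool of siRNAs was the only means of MSI1 depletion, and the labels do not say whether the libraries of a group are separate cultures, so that p-values measure only the spread between these libraries. Levels are in FPKM, the fragments of a gene per kilobase of its length, scaled to the size of the library, which allows levels of different genes to be compared.

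AP-1 is a dimer of basic leucine zipper (bZIP) proteins. JUN proteins pair with each other or with FOS proteins, FOS proteins need a JUN partner, and the dimers bind the motif TGACTCA or the related motif TGACGTCA. FOS, FOSB, JUN and JUNB are textbook immediate-early genes, which growth factors switch on within minutes through ERK and JNK kinases, whereas FOSL1 (the protein FRA-1) and FOSL2 (FRA-2) lack a strong transactivation domain and stay on longer. In GBM, FOSL1 is known for its association with the mesenchymal tumor state.

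The libraries held 14448513 to 18024080 reads on genes in siC and 13087025 to 14700593 in siMSI1. MSI1 was at 63.7, 61.9 and 66.9 FPKM in siC against 12.1, 12.3 and 11.2 FPKM in siMSI1, so that 18.5% of its level was left (log2 fold change −2.43, SE 0.067, limma adjusted p = 8.7e-06). The 5 neural or glial markers SOX2, NES, VIM, GFAP and MSI1 were detected in each library. GFAP, an astrocyte filament, was at 1.33 to 1.99 FPKM in siC against 4.14 to 5.04 FPKM in siMSI1, whereas the siMSI1 libraries were lower for SOX2 (296 to 305 against 243 to 279 FPKM), NES (68.2 to 70.2 against 58.2 to 63.7 FPKM) and VIM (996 to 1056 against 824 to 937 FPKM). The part of these markers in the results below was not tested. The 7 markers of other cells (PTPRC, CD14, PECAM1, CDH5, EPCAM, RBFOX3 for neurons and MOG for oligodendrocytes) summed to 0.0369 to 0.473 FPKM in siC and to 0.388 to 0.465 FPKM in siMSI1. Of these, CDH5 was at 0 to 0.0278 FPKM in siC against 0.102 to 0.257 FPKM in siMSI1, on at most 22 reads. PECAM1 was at 0 to 0.0086 FPKM against 0.0449 to 0.07 FPKM, on at most 8 reads, and the others overlapped. RBFOX3 and MOG had 0 reads in all 6 libraries, which allows up to 3 reads in each.

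The sequences of the genes were read for the motifs that bear on MSI1 and on AP-1 itself. MSI1 is known to bind RNA at UAG motifs, and the study examined microRNAs that act on the 3′UTR of CD44. In the 3′UTRs of 11273 tested genes UAG occurred at 12.4 per kb and 94.4% of them held at least 1. Of the 9 genes only FOS was above that density, at 19.9 per kb (16 copies). FOSL1 held 8 copies (9.56 per kb), FOSL2 41 (8.42), ATF3 14 (11.5), JUN 13 (10.1), BATF3 3 (8.02), FOSB 12 (5.54), JUNB 2 (4.0) and JUND 0. The AUUUA element, which is known from short-lived mRNAs, occurred at 2.33 per kb over all 3′UTRs. Its density was 6.20 per kb in FOS (5 copies), 4.0 in JUNB (2), 2.67 in BATF3 (1), 2.46 in ATF3 (3) and 2.34 in JUN (3). It was lower in FOSL2 (1.85, 9 copies), FOSB (1.38, 3), JUND (1.34, 1) and FOSL1 (1.19, 1). With so few copies, a density above or below that of all 3′UTRs can rest on 1 motif. Of these microRNAs only 2 were searched, and the others that the study examined were not. The mature sequences of the 2 from RefSeq (GRCh38.p14) are shown with the seed (bases 2 to 8) in capitals. They lie at chr5:149428978-149428998 and chr9:95085505-95085525, both on the plus strand.
hsa-miR-143-3p: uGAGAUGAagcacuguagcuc
hsa-miR-27b-3p: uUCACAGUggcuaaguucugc

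The miR-143-3p seed match UCAUCUC occurred 1 time in the 3′UTR of FOSL1, 2 times in that of FOSL2 and 1 time in that of FOSB, and was not found in those of the other 6 genes. Of all 3′UTRs, 14.3% held it. The miR-27b-3p seed match ACUGUGA occurred only in FOSB among the 9 genes, and 18.3% of all 3′UTRs held it. The matches in FOSL1 and FOSL2 are printed 5′ to 3′ on the mRNA strand, with the match in capitals, since these are the FOS family genes with the larger levels. The FOSL1 match is at chr11:65892049-65892075 (minus strand, GRCh38), at the very end of the 3′UTR, and those of FOSL2 are at chr2:28413056-28413085 and chr2:28414565-28414594 (plus strand). A match of letters is not a bound site.
FOSL1 3′UTR: auccgcucggccUCAUCUCcgggacug
FOSL2 3′UTR, first match: gccucccagucaUCAUCUCcagaacuccca
FOSL2 3′UTR, second match: ucacagggguaaUCAUCUCaagugguauuu

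Promoters from RefSeq (GRCh38.p14) were held for 7 of the 9 genes, FOSL1 and BATF3 being the others, and were searched on both strands. The motif TGACTCA was present in 4.95% of 35116 promoters, TGACGTCA in 1.85% and TGACATCA in 2.61%. JUND held TGACGTCA, JUN and ATF3 held TGACATCA, and FOSL2 held TGACTCA from base 4 to base 10 after its start. FOS, FOSB and JUNB had TATAAA about 30 bases before the start, and ATF3 had it at bases −230 to −225 before a start. At any position and on either strand TATAAA was in 11.5% of promoters, a share that does not count its place. JUND had 6 copies of CCGCCC, a motif in 45.0% of promoters, and no TATAAA. Stretches of 100 bases before the start of JUND (chr19:18281769-18281868, minus strand), JUN (chr1:58784061-58784160, minus strand) and ATF3 (chr1:212565238-212565337, plus strand) are shown because each holds an AP-1 or related motif, in capitals.
JUND promoter: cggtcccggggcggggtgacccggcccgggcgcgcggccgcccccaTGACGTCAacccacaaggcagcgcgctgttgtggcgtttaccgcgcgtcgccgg
JUN promoter: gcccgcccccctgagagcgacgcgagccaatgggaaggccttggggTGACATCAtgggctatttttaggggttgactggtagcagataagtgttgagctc
ATF3 promoter: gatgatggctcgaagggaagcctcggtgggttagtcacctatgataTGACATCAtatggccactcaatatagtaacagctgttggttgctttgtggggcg

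In control cells the JUN family was the more abundant part of AP-1. Ordered by mean FPKM in siC, JUND was highest, followed by JUNB, JUN, FOSL2, FOSL1, BATF3, ATF3, FOS and FOSB, and no neighbours in this order overlapped between their 3 libraries. JUND stood at the 95.7 percentile of the 15069 tested genes by mean FPKM in siC, FOSL2 at the 74.9 and FOSL1 at the 71.2. FOS and FOSB, the classical growth factor-induced genes, stood at the 22.6 and the 10.0. All 9 genes passed the filter for testing, a mean of at least 0.5 FPKM. Upon MSI1 knockdown the order of the upper 5 was JUND, FOSL1, JUNB, JUN and FOSL2. There JUND and FOSL1, FOSL1 and JUNB, and JUN and FOSL2 overlapped, and by its mean FOSL1 stood above FOSL2, JUN and JUNB.

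**Figure D1:**
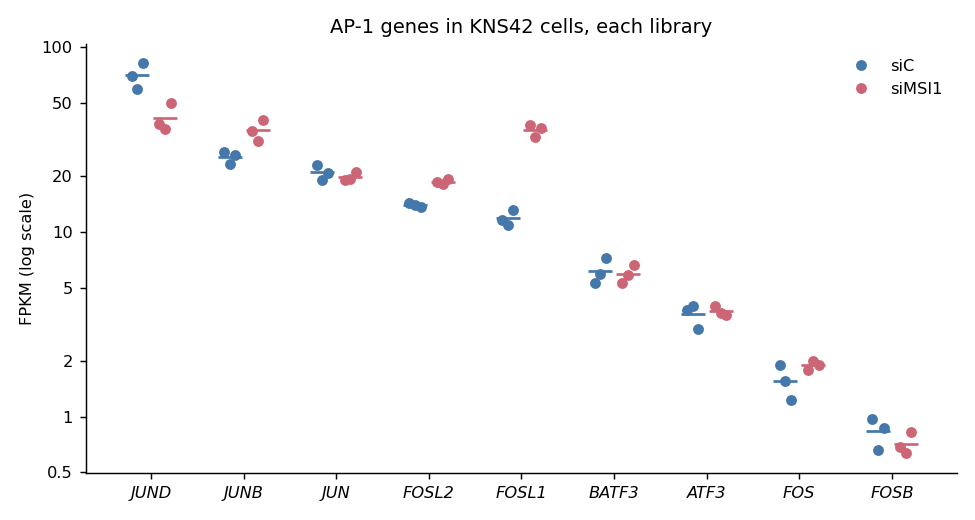
FPKM of the 9 AP-1 genes (log axis) in the 3 siC and the 3 siMSI1 libraries of KNS42 cells. Points are libraries and lines are group means. FOSL1 lies between 10.9 and 13.1 FPKM in siC and between 32.8 and 37.9 FPKM in siMSI1, and JUND between 59.7 and 81.7 FPKM and between 36.0 and 49.6 FPKM.

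FOSL1 (ENSG00000175592, chr11:65892049-65900573, minus strand, GRCh38) was at 11.5, 10.9 and 13.1 FPKM in the siC libraries against 37.9, 32.8 and 36.4 FPKM in the siMSI1 libraries. The groups were far apart and each siMSI1 library was over the highest siC library. The mean was 11.8 ± 1.14 FPKM (SD, n = 3) in siC and 35.7 ± 2.62 FPKM (SD, n = 3) in siMSI1, a 3.01-fold difference (log2 fold change 1.59, SE 0.091). Behind these levels stood 326 to 372 reads per siC library and 812 to 1055 reads per siMSI1 library. Of the 15069 tested genes, 95 (0.630%) had a log2 fold change at or above that of FOSL1, itself included. The pseudogene FOSL1P1 reached at most 0.0831 FPKM, in 1 library. In bulk RNA, more cells that express a gene and more RNA of it per cell cannot be told apart.

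FOSL2 (chr2:28392448-28417317, plus strand) encodes the closest relative of FRA-1. It was at 14.3, 14.0 and 13.6 FPKM in siC against 18.7, 18.1 and 19.3 FPKM in siMSI1. The libraries of each group lay close together and the groups did not overlap. The means were 14.0 ± 0.338 and 18.7 ± 0.588 FPKM (SD, n = 3 each), 1.34-fold apart (log2 fold change 0.42, SE 0.062). The 2 RNAs that overlap FOSL2 reached at most 0.254 FPKM (FOSL2-AS1, opposite strand) and 0.917 FPKM (ENSG00000270640, same strand).

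FOS (chr14:75278826-75282230, plus strand), the founding member of the family, was at 1.90, 1.55 and 1.22 FPKM in siC against 1.78, 2.0 and 1.89 FPKM in siMSI1. The groups overlapped, and the siC libraries ranged more widely than the siMSI1 libraries. Its log2 fold change was 0.28 (SE 0.173), on 57 to 92 reads per library. FOSB (chr19:45467995-45475179, plus strand), a close relative of FOS that is known for lasting forms in neurons, was at 0.974, 0.657 and 0.864 FPKM in siC against 0.684, 0.632 and 0.828 FPKM in siMSI1. These groups overlapped too (log2 fold change −0.19, SE 0.239), on 46 to 81 reads per library. FOSB overlaps ERCC1 on the opposite strand, which was at 11.8 to 14.2 FPKM. The libraries were strand-specific, but the strand setting of the counting is not given in the sources used here, so reads of the pair cannot be told apart with certainty.

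JUND (chr19:18279694-18281622, minus strand), the JUN protein that is known to be present in resting cells and to restrain growth, was at 69.9, 59.7 and 81.7 FPKM in siC against 38.5, 36.0 and 49.6 FPKM in siMSI1. The groups did not overlap, and within each group the third library was the highest and the second the lowest. The means were 70.4 ± 11.0 and 41.4 ± 7.24 FPKM (SD, n = 3 each), so that siMSI1 stood at 58.7% of siC (log2 fold change −0.77, SE 0.149). JUNB (chr19:12791486-12793315, plus strand), a partner of FRA-1 with weaker activity than JUN, was at 27.2, 23.4 and 26.0 FPKM in siC against 35.1, 31.0 and 40.5 FPKM in siMSI1. Its groups did not overlap and were 1.39-fold apart (25.6 ± 1.92 and 35.5 ± 4.75 FPKM, SD, n = 3 each). The log2 fold change of JUNB was 0.47 (SE 0.107). HOOK2, which overlaps JUNB on the opposite strand, was at 3.05 to 4.65 FPKM.

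JUN (chr1:58776845-58784048, minus strand), the strongest activator of the family, was at 23.0, 19.1 and 20.9 FPKM in siC against 19.0, 19.3 and 21.1 FPKM in siMSI1. The groups overlapped over most of their range (log2 fold change −0.08, SE 0.086). ATF3 (chr1:212565334-212620777, plus strand), a stress-induced partner of JUN proteins, was at 3.77, 4.0 and 2.99 FPKM in siC against 3.95, 3.64 and 3.53 FPKM in siMSI1. BATF3 (chr1:212686417-212699840, minus strand), a small bZIP protein known from dendritic cells, was at 5.31, 5.91 and 7.23 FPKM in siC against 5.30, 5.82 and 6.65 FPKM in siMSI1. Both overlapped between the groups, with log2 fold changes of 0.06 (SE 0.126) for ATF3 and −0.05 (SE 0.133) for BATF3.

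In the fit over all genes, 3 of the 9 genes were past the threshold of an adjusted p of 0.01, FOSL1 and FOSL2 as higher and JUND as lower in siMSI1. Over all tested genes the share past it was 11.0% in either direction, 5.15% as higher and 5.83% as lower. Groups did not overlap for 4 of the 9 genes, the fourth being JUNB, against 42.8% of all tested genes. The list was chosen by this same contrast, and nothing is read from these counts. FOSL2 was no longer past the threshold without siC 1, siC 2, siC 3 or siMSI1 1 (log2 fold changes 0.43, 0.42, 0.40 and 0.42), nor was JUND without siC 1, siC 3, siMSI1 1 or siMSI1 2 (−0.77, −0.66, −0.72 and −0.68).

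**Figure D2:**
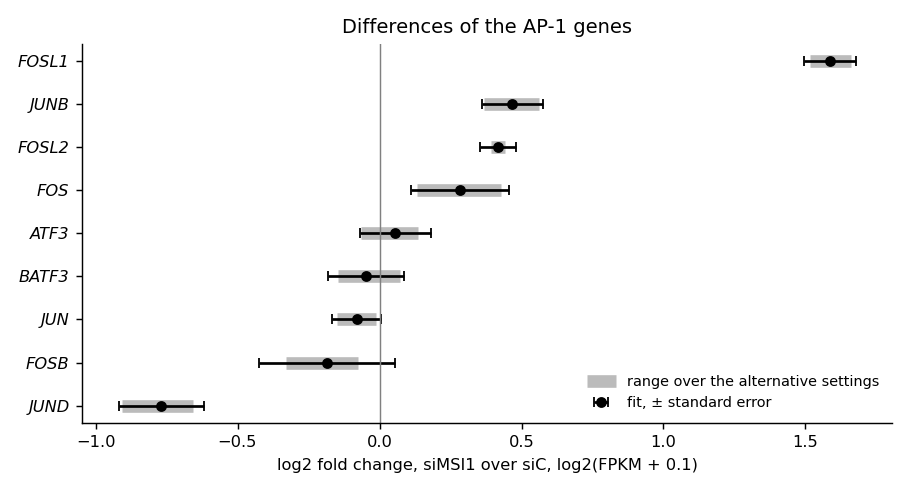
Log2 fold change of siMSI1 over siC for the 9 AP-1 genes on the log2(FPKM + 0.1) scale. Points are the fit with its standard error (3 libraries per group) and grey bars span the alternative settings. FOSL1 stands apart at 1.59, JUNB and FOSL2 lie at 0.47 and 0.42, and JUND lies at −0.77.

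The leading FOS family mRNA differed between the groups. FOSL1 made up 42.0% ± 3.09 (SD, n = 3) of the summed FOS family FPKM in siC and 62.6% ± 1.47 in siMSI1, a difference of 20.6 percentage points. The share of FOSL2 was 49.6% in siC and 32.8% in siMSI1, and that of FOS was 5.53% and 3.33%, so FOSL2 was the leading FOS family mRNA in control cells and FOSL1 upon MSI1 knockdown. The summed FOS family was at 28.2 ± 0.915 FPKM in siC against 57.0 ± 3.01 FPKM in siMSI1 (SD, n = 3 each), 2.02-fold apart with no overlap.

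The JUN family differed in makeup more than in its sum. JUND made up 60.0% of the summed JUN family FPKM in siC and 42.6% in siMSI1, JUNB 21.9% and 36.7%, and JUN 18.0% and 20.6%. The shares of JUND and JUNB did not overlap between the groups, whereas those of JUN did. The ratio of JUNB to JUND was 0.367 in siC and 0.863 in siMSI1. The sum of the family was 117 ± 13.4 FPKM in siC and 96.7 ± 12.9 FPKM in siMSI1 (SD, n = 3 each) and overlapped. Taking both families, 145 ± 14.3 FPKM in siC stood against 154 ± 14.9 FPKM in siMSI1, a ratio of 1.06 within the spread of the libraries. The ratio of summed FOS to summed JUN mRNA was 0.243 in siC and 0.594 in siMSI1, without overlap. These shares are of mRNA and follow from the same values that chose the list.

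**Figure D3:**
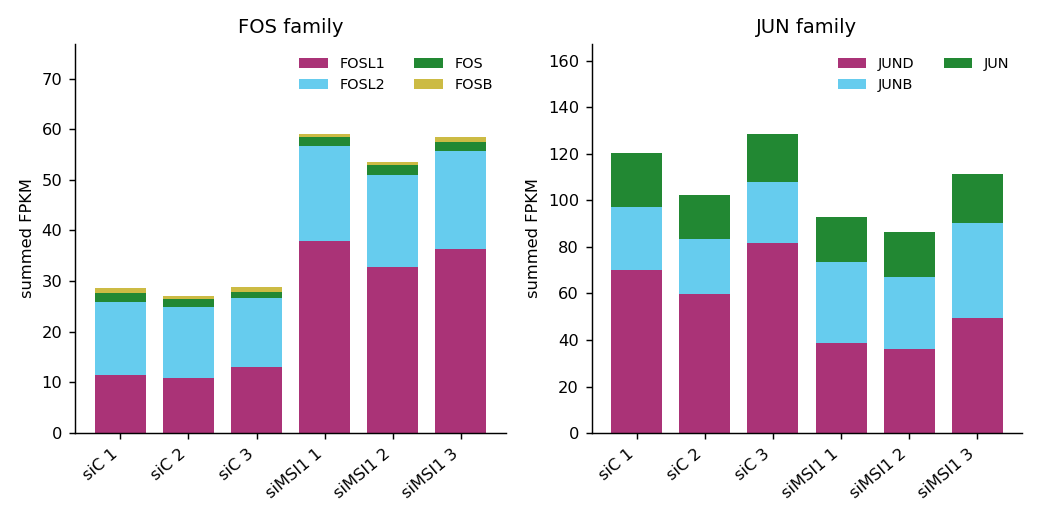
Summed FPKM of the FOS family (left) and the JUN family (right) in each of the 6 libraries, with 1 colour per gene. The FOS family sums to a mean of 28.2 FPKM in siC and 57.0 FPKM in siMSI1, mostly by the FOSL1 part, while the JUND part of the JUN family is smaller in siMSI1 than in siC.

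The spread between libraries of a group differed widely among the 9 genes. It was measured as the chi-square of the recovered reads per degree of freedom, where 1 is counting error alone and the median tested gene was at 2.35 in siC and 2.93 in siMSI1. FOSL2 was at 0.859 and 1.81, close to counting error, and FOSL1 was at 3.25 and 4.95. JUND was at 51.7 in siC and 33.0 in siMSI1, the 99.1 and the 95.2 percentile of tested genes, and JUNB was at 4.42 and 15.9. This measure grows with the number of reads, for which the percentiles were not matched. As SD over mean, the siC spread was 15.6% for JUND against 21.6% for FOS, 19.3% for FOSB and 15.9% for BATF3. Counting error alone would give 2.21% for JUND and 11.2% for FOS in siC. In siMSI1 the SD over mean was 17.5% for JUND and lower for every other gene of the list. JUND is also among the most GC-rich mRNAs, with a transcript GC content of 69.9% (the 99.4 percentile), and JUNB follows with 64.9% (the 95.7 percentile). FOSL1 is at 58.7%.

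Within each group, the library in which JUND was highest was also the library in which the median of GC-rich genes was highest. The 747 tested genes in the top 5% of GC, which include JUND and JUNB, were each taken relative to their mean over all 6 libraries. Their median deviation on the log2 scale was 0.0023, −0.085 and 0.13 in siC 1 to 3. In siMSI1 1 to 3 it was −0.065, −0.097 and 0.16. JUND deviated from its own group mean, another reference, by 0.00078, −0.23 and 0.23 in siC and by −0.089, −0.19 and 0.28 in siMSI1. In both, siC 3 and siMSI1 3 were the high libraries and siC 2 and siMSI1 2 the low ones. JUNB deviated from its own group mean by 0.093, −0.12 and 0.028 in siC, where siC 1 and not siC 3 was highest. In siMSI1 it deviated by −0.0097, −0.19 and 0.20. When the trend of each library with transcript GC was taken out, a step added after seeing the data, the log2 fold change was −0.72 for JUND, 0.50 for JUNB, 1.58 for FOSL1 and 0.39 for FOSL2.

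**Figure D4:**
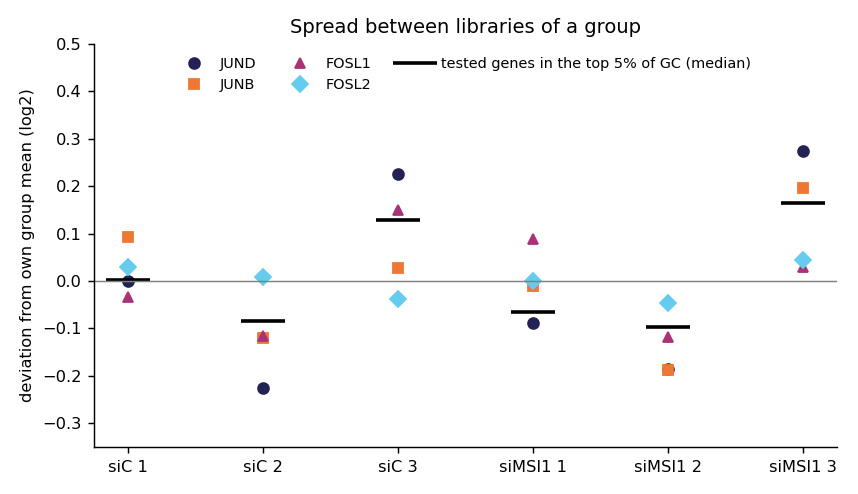
Deviation of JUND, JUNB, FOSL1 and FOSL2 from their own group mean in each library, on the log2 scale. Black bars are the median deviation of the 747 tested genes in the top 5% of transcript GC. For the bars each gene was taken from its mean over all 6 libraries, although the axis names the group mean. JUND lies 0.23 over its mean in siC 3 and 0.28 over it in siMSI1 3, the libraries where the black bars are highest.

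A search for genes with the pattern most like that of FOSL1 used the root mean square difference of log2 levels, each taken relative to its own siC mean, over the 6 libraries and 13032 genes with a mean of at least 1 FPKM. The closest was HRH1, the histamine H1 receptor, with a difference of 0.092. HRH1 was at 1.67, 1.86 and 2.08 FPKM in siC against 6.41, 5.78 and 6.33 FPKM in siMSI1, 3.30-fold apart. LGR6, a receptor for R-spondins, followed with a difference of 0.10 and a 3.29-fold higher mean, then the lincRNA AP003774.1 (0.12, 2.99-fold), IER5L (0.13, 2.86-fold) and BTG2 (0.14, 2.87-fold). BTG2, an antiproliferative immediate-early gene, was the most abundant of the 5, at 10.7 to 11.1 FPKM in siC against 28.6 to 33.4 FPKM in siMSI1. These genes share the libraries with FOSL1 and were picked for likeness to it, so their levels are a description.

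The other bZIP genes, which include partners of AP-1 and related dimers, moved in both directions. This list and the lists below were chosen with earlier results of these data known. Their p-values describe the fit and are not independent support. Of 36 genes listed, 29 passed the filter, 2 rose, 4 fell and 23 did not pass the test, against 11.0% of all tested genes past the threshold, and the median log2 fold change was −0.02 against 0.00 over all tested genes (1.5e-05). The 2 that rose were C/EBP factors of the acute-phase and cytokine response. CEBPD was at 12.6, 12.1 and 16.5 FPKM in siC against 25.1, 27.4 and 28.5 FPKM in siMSI1 (log2 fold change 0.98, limma adjusted p = 0.0014). CEBPB, which is also known as a regulator of the mesenchymal GBM state, had means of 12.5 ± 1.44 and 22.8 ± 2.63 FPKM (SD, n = 3 each; 0.86, limma adjusted p = 0.0017), and without siC 1 it missed the threshold at 0.84. Of the 4 that fell, the 3 with the largest change are given here. ATF6B fell by 1.04 on the log2 scale (limma adjusted p = 9.4e-04), CREB3L2 by 0.99 (6.3e-04) and ATF6 by 0.77 (0.0014). In each of these genes the groups did not overlap.

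Genes upstream of AP-1, the RAS, RAF, MEK, ERK, JNK and p38 kinases with the factors and ubiquitin ligases that act on FOS and JUN genes or proteins, formed the next list. Of 30 listed, 29 were tested, 0 rose and 2 fell, by limma at an adjusted p of 0.01. That is 6.90% past the threshold, against 11.0% of all tested genes, and the median log2 fold change was −0.05. At an adjusted p of 0.05 by limma, 5 were higher and 3 lower, where 1838 of all 15069 tested genes were higher and 1949 lower. MAP2K7, the kinase that activates JNK, was at 18.2, 17.6 and 19.3 FPKM in siC against 11.1, 9.96 and 10.6 FPKM in siMSI1 (−0.79, limma adjusted p = 5.1e-04). Every siMSI1 library was below every siC library for this gene. With other settings the number of changed genes in this list ranged from 2 to 13, and voom on the recovered reads gave 4 higher and 4 lower. Over all 15069 tested genes voom gave 1328 higher and 1527 lower.

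The other immediate-early genes, which share their inducing signals with FOS and JUN, included 1 that passed the test. Of 19 listed, 14 were tested, BTG2 rose (log2 fold change 1.51, limma adjusted p = 1.3e-04), 0 fell and 13 did not pass by limma, with a median log2 fold change of 0.04. BTG2 was also picked above for its likeness to FOSL1, so its p-value is a description. The share past the threshold was 7.14%, against 11.0% of all tested genes. Over all 14, BTG2 included, 4 were higher and 1 lower at an adjusted p of 0.05 by limma, and voom called 4 higher and 1 lower. Of all 15069 tested genes voom called 1328 as higher and 1527 as lower. At an adjusted p of 0.05 by limma, 1838 of all 15069 tested genes were higher and 1949 lower. EGR2, EGR3, IER3, ARC and KLF4 were under the filter. Of 10 ERK output genes, 7 were tested and 2 rose, against 5.15% of all tested genes as higher. SPRY2, a feedback inhibitor of receptor tyrosine kinase signalling, was at 9.27, 10.3 and 9.40 FPKM in siC against 14.0, 14.4 and 13.9 FPKM in siMSI1 (0.54, limma adjusted p = 0.0017), and without siC 1 it missed the threshold at 0.51. PHLDA1 had means of 2.70 and 4.51 FPKM (0.71, limma adjusted p = 0.0065) and missed it when any 1 library was left out, at 0.59 to 0.79. DUSP4, CCND1 and ETV4 were under the filter.

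AP-1 target genes known from the literature gave 3 that rose and 1 that fell among 15 tested of 26 listed, where 5.15% of all tested genes rose and 5.83% fell. LIF, a cytokine of the IL-6 family, was at 8.02, 7.40 and 7.72 FPKM in siC against 14.9, 14.2 and 14.6 FPKM in siMSI1 (0.91, limma adjusted p = 2.7e-04). HMOX1, the stress-induced heme oxygenase, was at 8.66, 8.62 and 8.79 FPKM in siC against 14.6, 14.2 and 14.2 FPKM in siMSI1 (0.71, limma adjusted p = 4.3e-04). Each of these pairs of groups was tight and well separated. EDN1, the vasoactive peptide endothelin, rose as well (0.73, limma adjusted p = 0.0050), but missed the threshold without siC 1, siC 3, siMSI1 1 or siMSI1 2 (0.72, 0.66, 0.69 and 0.66). CD44, the hyaluronan receptor and GBM stem cell marker that the study chose in these cells, fell, from 84.8 ± 1.64 to 61.9 ± 3.89 FPKM (SD, n = 3 each; −0.46, limma adjusted p = 0.0030). It missed the threshold when siC 1, siC 2, siC 3, siMSI1 1 or siMSI1 2 was left out, at −0.47 to −0.41. The median log2 fold change of the 15 was 0.32. The collagenase and stromelysin genes MMP1, MMP3, MMP9, MMP10 and MMP13, which are classical AP-1 targets, were under the filter in these cells, as were SERPINB2, CCND1, IL6, CXCL8, AREG and EREG.

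Of 24 genes of the mesenchymal GBM state, 20 were tested, 2 rose and 1 fell, with a median log2 fold change of 0.23. The share past the threshold was 15%, near the 11.0% of all tested genes. CEBPB and CD44, described above, were among these 3, since the lists share some genes. TNFRSF1A, the TNF receptor, was at 70.1, 64.8 and 72.3 FPKM in siC against 103, 98.2 and 116 FPKM in siMSI1 (0.61, limma adjusted p = 0.0020). It was higher in all 3 siMSI1 libraries and missed the threshold without siC 1, at 0.62. Without siC 1 the count of this list was 0 by limma at an adjusted p of 0.01, where 528 of all 15069 tested genes passed. At an adjusted p of 0.05 with all 6 libraries it was 11, where 3787 of all 15069 tested genes passed. With all 6 libraries the count of this list was 11 by voom on the recovered reads, which called 2855 of all 15069 tested genes.

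**Figure D5:**
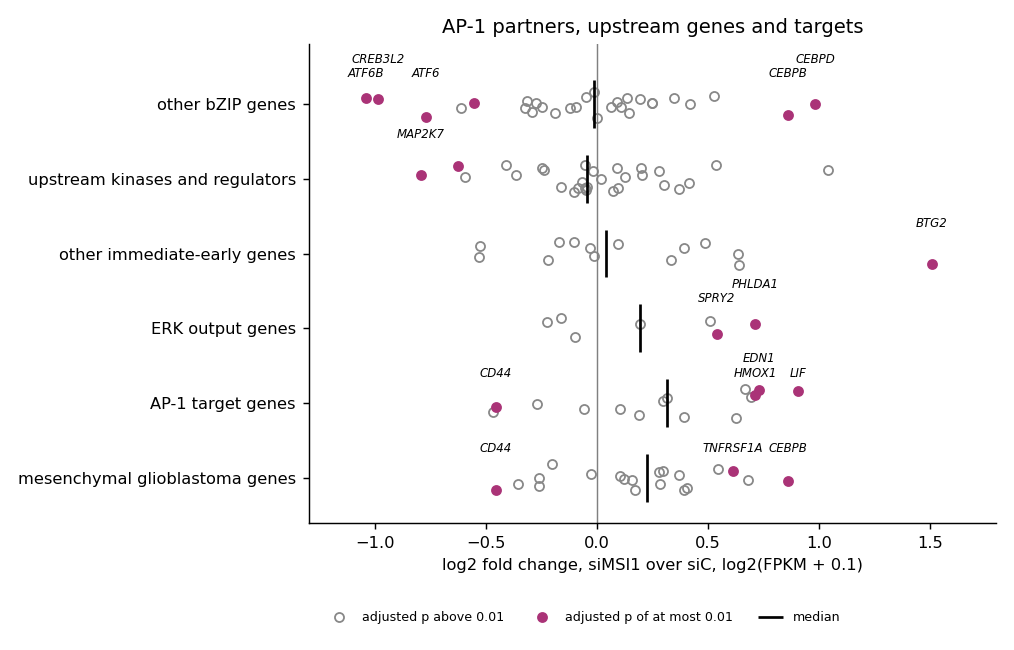
Log2 fold change of siMSI1 over siC for the tested genes of 6 lists around AP-1. Filled points passed an adjusted p of 0.01 by limma, open points did not, and vertical lines are list medians. BTG2 lies at 1.51 among immediate-early genes, whereas the bZIP list runs from −1.04 (ATF6B) to 0.98 (CEBPD).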

How the data were processed

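mRNA of 6 KNS42 libraries was analysed, grouped by the siRNA in the sample labels. The authors trimmed reads with cutadapt 1.14, aligned them to GRCh38 with HISAT2 2.1.0 and counted them per gene with featureCounts 1.5.3 (versions from the submitters' processing notes). They deposited 1 table of FPKM per gene and library, with gene lengths. Its columns of log2 fold change, p-value and FDR from the authors' comparison in edgeR 3.18.1 were not used. Reads per gene were recovered from FPKM and gene length, and were whole (within 0.01) for 100% of values. The count of reads limits precision, and 3 reads served as a floor for counting error only.

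A linear model on log2(FPKM + 0.1) was fitted with limma 3.58.1 (R 4.3.3) to the 15069 genes having a mean of at least 0.5 FPKM (eBayes with trend and robust, no covariate), siMSI1 minus siC, with Benjamini-Hochberg adjustment over all of them and a threshold of 0.01. Fold changes on this scale understate low genes. The fit was tested on simulated data. Tables and plots were made in Python 3.11.15.

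The 9 genes and the 6 lists of related genes were chosen with earlier results of these data known. Genes named are the 9, MSI1, the 5 most like FOSL1 and, per list, up to 5 genes past the threshold by size of change. A gene that this rule would name is not reported here. 3′UTRs and GC content came from GENCODE canonical transcripts on GRCh38. Alternatives were another added value (0.01 or 1), filter, scaling, variance model, a replicate block, voom on recovered reads and leaving out each library.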

Additional observations from a re-analysis of the deposited data

How the results depend on the processing

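The log2 fold changes of FOSL1 (1.52 to 1.66), FOSL2 (0.39 to 0.44), JUNB (0.37 to 0.56), JUND (−0.91 to −0.66), FOS (0.13 to 0.43), FOSB (−0.33 to −0.08) and JUN (−0.15 to −0.01) kept their direction under the 17 alternatives run for each (16 for FOSB), while ATF3 (−0.07 to 0.14) and BATF3 (−0.15 to 0.07) took either sign. FOSL2 was past the threshold in 12 of the 17 and JUND in 9, and since the list was chosen by this contrast such calls support nothing about the genes. The FOSL1 share of the FOS family differed by 19.7 to 22.4 percentage points and the summed AP-1 ratio was 1.0 to 1.11. The order of levels in siC was the same without each siC library. The number of AP-1 genes past the threshold was 3, and 1 with plain eBayes and 1 to 3 with a library left out. The number of changed genes, 1655, was 792 with no filter on low genes, 847 with plain eBayes, 2855 with voom on recovered reads, 5070 with voom and the replicate block, 3787 at an adjusted p of 0.05, 3264 with the GC correction, an alternative chosen after seeing the data, and 528 to 1603 with a library left out, lowest without siC 1. With a mean FPKM of at least 1 it was 1851 of 13040 tested genes, and with quantile normalization 1767 of 15069.

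Changed genes among other bZIP genes numbered 17 with voom and the replicate block, 10 with the GC correction and 11 at an adjusted p of 0.05. Upstream kinases and regulators numbered 5 with the replicate block, 8 with voom, 13 with voom and the block, 10 with the GC correction and 8 at 0.05. Other immediate-early genes numbered 3 with a mean FPKM of at least 1, 2 with the block, 5 with voom, 6 with voom and the block, 2 with the GC correction and 5 at 0.05. ERK output genes numbered 1 with no filter and 1 with plain eBayes, and 0 to 1 with a library left out (0 without siC 1). AP-1 target genes numbered 2 with plain eBayes, 7 with the block, 8 with voom, 9 with voom and the block, 8 with the GC correction, 8 at 0.05 and 2 to 4 with a library left out. Mesenchymal GBM genes numbered 5 with quantile normalization, 1 with plain eBayes, 6 with the block, 11 with voom, 15 with voom and the block, 11 with the GC correction, 11 at 0.05 and 0 to 5 with a library left out. Why these counts moved was not tested.

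Over all tested genes, deviations of libraries with the same number correlated at r = −0.066, 0.078 and 0.083, each under 0.1, and the numbers were not taken as pairs, although JUND, BATF3 and GC-rich genes were high in the third library of both groups. These numbers are those of the sample labels, and a supplement of the study numbers its libraries otherwise. With the replicate block, 2250 genes were changed and 4 of the 9 AP-1 genes were past the threshold. The libraries held 13087025 to 18024080 reads, which left FOS and FOSB on fewer than 100 reads each.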
